A study of Mus musculus with 2 samples.

Results

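The constitutive proteasome genes are the protein-coding genes whose symbol begins with Psma, Psmb, Psmc, Psmd or Psme and a digit, without the immunoproteasome genes Psmb8, Psmb9 and Psmb10. In the GENCODE vM21 annotation of the mouse assembly mm10 (GRCm38) 42 genes met this rule, of 21755 protein-coding genes on the autosomes and the X chromosome. They comprised 8 alpha and 8 beta subunits of the 20S core, 6 ATPases and 3 non-ATPase subunits of the base of the 19S particle, 8 subunits of its lid, 3 assembly chaperones, 5 activator genes, and Psmc3ip, which shares the symbol but encodes a meiotic recombination factor and no proteasome subunit. The rule itself uses symbols and the annotation only.

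Open chromatin had been mapped by DNase-seq, in which DNase I cuts nuclear DNA where it is accessible and the cut sites are sequenced. The tissue was spleen of B6CASTF1/J females, a cross of C57BL/6 with CAST studied in its F1 generation, at 36 days of age, with no treatment or engineered allele given. The labels name biological replicates 1 and 2 with separate biosamples and separately numbered females but attach 1 donor entry to both, so part of the spread between them may be technical. With 2 libraries in a single group, no comparison between conditions exists.

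The proteasome is the protease that degrades ubiquitin-tagged proteins in the cytosol and nucleus. Its 20S core is a barrel of stacked rings, in which the alpha subunits form the gate and some of the beta subunits carry the catalytic sites. The 19S particle recognises, unfolds and deubiquitinates substrates, and the PA28 and PA200 activators can cap the core in its place. In lymphoid organs much of the core carries the immunoproteasome subunits instead, which favour peptides for presentation on MHC class I. Many mammalian proteasome genes are known targets of the transcription factors Nfe2l1 and Nfe2l2, which bind the antioxidant response element (ARE).

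Replicate 1 had 42454 peaks and 133725 footprints, and replicate 2 had 60683 peaks and 246700 footprints. Total sequencing depth is not given in the sources used here. A promoter peak is one that overlaps the window reaching 1 kb in both directions from a start site of the annotation. The signal of a peak is the authors' own value on a scale that is not stated, so it was used only to rank peaks within a library, as the percentage of that library's peaks with a lower signal (rank percentile). All 5 B cell markers tested had a promoter peak in both libraries, T cell markers 3 and 4 of 4, red pulp macrophage markers 2 and 3 of 3, and markers of liver, pancreas, skin and heart 0 of 5. Whole spleen mixes many cell types, so opening in fewer cells cannot be told apart from weaker opening in each cell.

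Upstream parts of the strongest promoter openings of the alpha, beta, ATPase and lid subunits are shown first, followed by those with an ARE inside a footprint. Each is the stretch upstream of the start site that lay inside the strongest promoter peak of both libraries, up to 200 bases and cut back where another annotated exon began. For Psma2 this left 55 bases. Most of its peak is thus not shown, including the midpoint, which lies nearer to the start of the gene Mrpl32. The letters are those of the GRCm38 reference, which is C57BL/6J, so the CAST allele of these hybrids is not shown. Capitals mark bases inside a footprint, a short stretch protected from DNase I, in both libraries. Psma2, an alpha subunit, is read on the plus strand of chr13:14613166-14613220; Psmb3, a structural beta subunit, on the plus strand of chr11:97703201-97703398; Psmc4, an ATPase, on the minus strand of chr7:28050102-28050301. Psmd8 had the top lid promoter, but its peak lay wholly downstream of its outermost start, so Psmd11, the next lid subunit, is shown on the plus strand of chr11:80428461-80428614.
Psma2: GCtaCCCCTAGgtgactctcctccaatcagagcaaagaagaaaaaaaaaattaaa
Psmb3: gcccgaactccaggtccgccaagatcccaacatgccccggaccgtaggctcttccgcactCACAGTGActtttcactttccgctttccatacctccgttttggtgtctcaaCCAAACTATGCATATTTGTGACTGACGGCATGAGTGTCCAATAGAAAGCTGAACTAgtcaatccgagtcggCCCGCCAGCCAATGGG
Psmc4: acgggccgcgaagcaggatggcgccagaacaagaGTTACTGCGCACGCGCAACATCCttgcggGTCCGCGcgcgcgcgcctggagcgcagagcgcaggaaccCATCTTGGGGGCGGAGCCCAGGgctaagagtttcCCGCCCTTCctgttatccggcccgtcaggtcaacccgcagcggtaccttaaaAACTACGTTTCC
Psmd11: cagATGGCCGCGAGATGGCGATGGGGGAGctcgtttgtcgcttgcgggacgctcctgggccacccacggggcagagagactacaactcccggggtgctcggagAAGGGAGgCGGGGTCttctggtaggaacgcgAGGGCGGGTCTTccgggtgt

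The ARE promoters are those of Psmd9, an assembly chaperone of the base (plus strand, chr5:123228121-123228189), and Psmb6, the caspase-like catalytic subunit (plus strand, chr11:70525241-70525366). Psmb5, the chymotrypsin-like catalytic subunit (minus strand, chr14:54618023-54618120), and Psmb2, a structural beta subunit (plus strand, chr4:126677521-126677629), were added after their values were seen. Psmb5 holds another ARE inside a footprint, and Psmb2 has the largest number of different motifs among the members. In Psmb6 the letters TGACG of the ARE lie just outside the footprint itself and are in lower case.
Psmd9: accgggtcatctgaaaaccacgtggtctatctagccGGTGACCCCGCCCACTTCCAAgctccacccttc
Psmb6: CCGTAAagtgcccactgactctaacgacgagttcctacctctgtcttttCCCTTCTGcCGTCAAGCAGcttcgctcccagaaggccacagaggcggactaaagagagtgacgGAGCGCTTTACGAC
Psmb5: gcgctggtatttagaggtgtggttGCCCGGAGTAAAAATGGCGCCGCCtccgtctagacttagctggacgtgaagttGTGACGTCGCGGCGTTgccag
Psmb2: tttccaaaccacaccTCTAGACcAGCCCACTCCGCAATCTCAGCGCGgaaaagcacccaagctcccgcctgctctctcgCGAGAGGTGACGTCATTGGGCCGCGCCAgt

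A promoter peak was present in both libraries for 39 of the 42 genes (92.9%). The same held for 53.9% of all protein-coding genes in replicate 1 and 57.4% in replicate 2. Most members have CpG-rich promoters, in which the observed over expected number of CpG dinucleotides within 500 bases of the start is at least 0.6, and such promoters are often open in every tissue. Among the 10415 CpG-rich protein-coding promoters the shares with a peak were 84.7% and 87.5%, and all 35 CpG-rich members had one in both libraries. Of the 7 CpG-poor members 4 had a peak in both libraries, against 25.5% and 29.7% of CpG-poor protein-coding promoters. Among these 4, Psma6 was classed by its outermost start, which had no peak. Its peak lay at an inner start with a ratio of 0.686. The count of 39 thus stood well above the share over all genes and nearer to that of CpG-rich promoters.

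The genes without a promoter peak were the testis alpha subunit Psma8, the thymus beta subunit Psmb11 and Psme2b, a relative of the activator gene Psme2. None had a peak in the longer, less strict peak list of either library either. The deposited cut rate track, which lists bases with a false discovery rate (FDR) under 0.05, listed 0 bases within 1 kb of their start sites in either library. They were thus the same genes in both libraries, and no weak signal was listed at them.

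Psma8 replaces an ordinary alpha subunit in male germ cells. Its start lies on chromosome 18 at position 14706151, and the nearest peak of the shorter list was 20834 bases away in replicate 1 and 22871 in replicate 2. Of 7 male germ cell markers 0 had a promoter peak in replicate 1 and 1, Tnp2, in replicate 2. Psmb11 encodes the beta subunit of the thymoproteasome of cortical thymic epithelium. It starts at position 54625310 of chromosome 14, only 7.29 kb from the start of the constitutive catalytic subunit Psmb5, and its nearest peak in both libraries was the Psmb5 promoter peak. Of 4 thymic cortical epithelium markers Prss16 and Ccl25 had a promoter peak in both libraries, whereas Foxn1 and Dll4 had none. Psme2b starts at position 48946190 of chromosome 11, and its nearest peak lay 43830 and 43850 bases away.

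**Figure D1:**
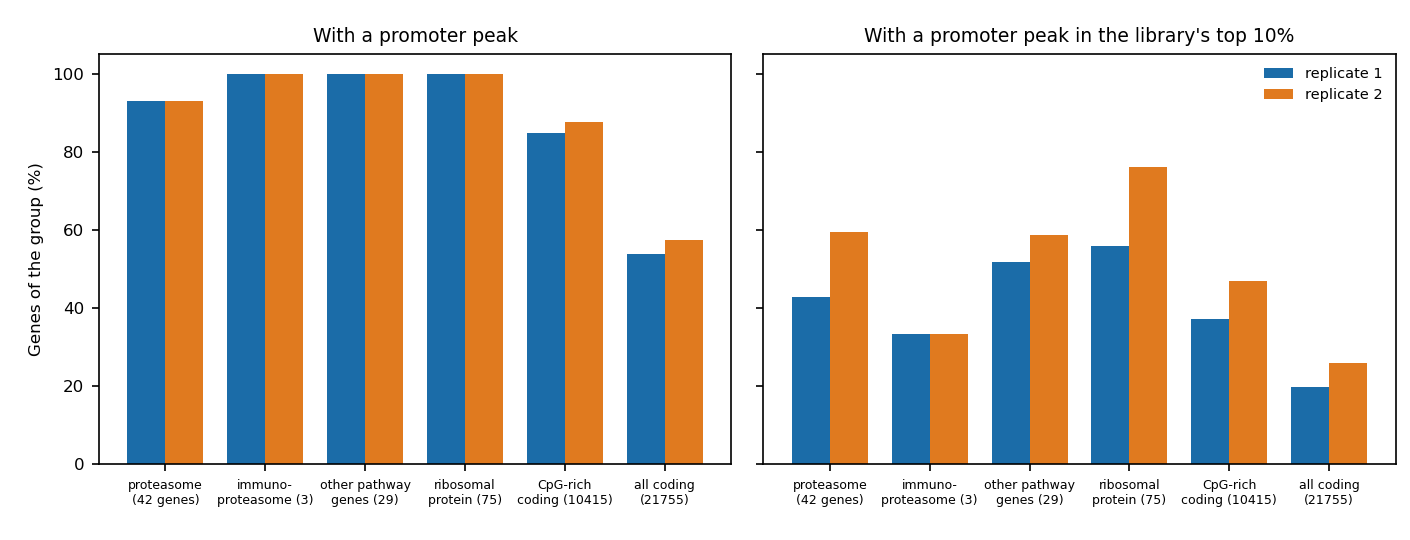
Share of genes with a promoter peak (left) and with a promoter peak among the strongest 10% of the library's peaks (right), by gene group and library, on an axis from 0 to 100%. The proteasome bars reach 92.9% on the left in both libraries, against 53.9% and 57.4% for all protein-coding genes, and 42.9% and 59.5% on the right.

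The strongest promoter peak of the 39 genes had a median rank percentile of 89.6 in replicate 1 and 92.9 in replicate 2, a mean of 91.3 ± 2.34 (SD, n = 2). The medians over all protein-coding genes with a promoter peak were 85.5 and 88.5, and over CpG-rich ones 88.3 and 91.0. The members' median thus lay above that of CpG-rich promoters in both libraries, by under 2 points. With equal numbers of the strongest peaks from each library the medians were 89.6 and 89.9 for the members and 88.3 and 87.9 for CpG-rich promoters. A peak among the strongest 10% of the library was present for 18 of the 42 genes (42.9%) in replicate 1 and for 25 (59.5%) in replicate 2. Over all protein-coding genes these shares were 19.9% and 26.0%, and over CpG-rich ones 37.3% and 47.0%. All 18 genes of replicate 1 were among the 25 of replicate 2. Nearly the same held over all protein-coding genes (4248 of 4324) and over CpG-rich ones (3818 of 3885), so this overlap is no trait of the members.

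All 75 cytosolic ribosomal protein genes, a set known for expression in nearly every cell type, had a promoter peak in both libraries, with medians of 91.5 and 94.0. The 29 other genes of the proteasome pathway found in the annotation (assembly factors, shuttle proteins, deubiquitinases and regulators) all had one as well, with medians of 90.4 and 91.6. Among them the transcription factor genes Nfe2l2 and Nfe2l1 stood at 99.7 ± 0.133 and 98.3 ± 1.55 (SD, n = 2), and Nfe2l3 at 39.9 ± 2.25. By median percentile the constitutive genes lay between CpG-rich promoters in general and the ribosomal protein genes in both libraries.

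**Figure D2:**
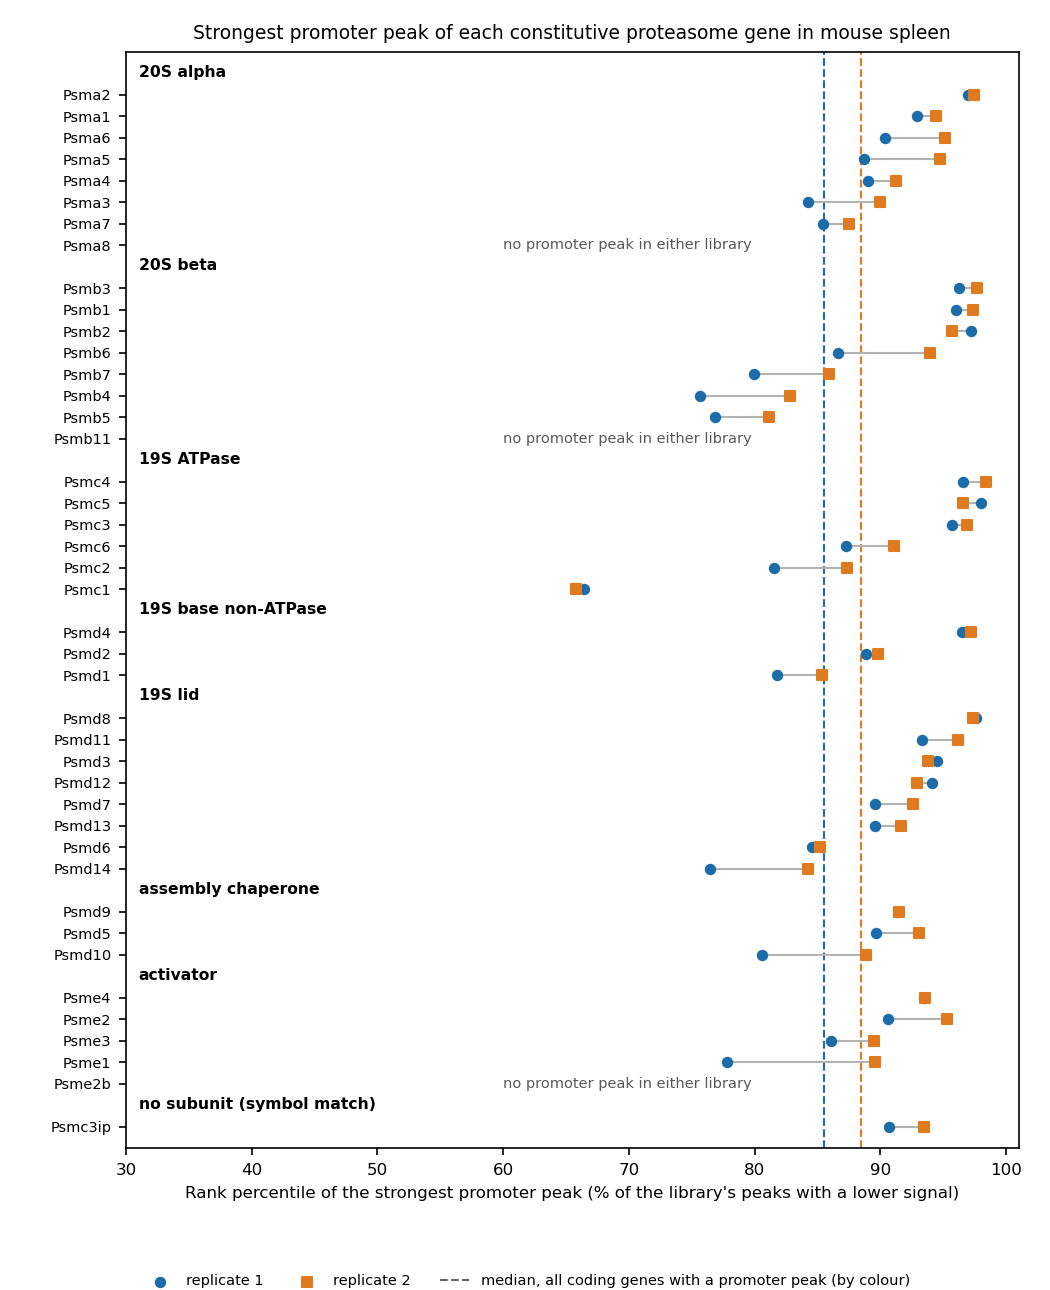
Rank percentile of the strongest promoter peak of each gene, by subcomplex, in replicate 1 (circles) and replicate 2 (squares), with dashed lines at each library's median over all protein-coding genes with a promoter peak. Most genes lie to the right of the lines, Psmc1 lies far to the left at 66.5 and 65.8, and Psma8, Psmb11 and Psme2b have no point.

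The ordering of the genes was much the same in the libraries, with a Spearman rho of 0.912 over 39 genes, which share their library's depth and list length. The strongest peaks of the libraries overlapped for all 39. By mean percentile 9 genes stood at 95 or more (Psmd8, Psmc4, Psmc5, Psma2, Psmb3, Psmd4, Psmb1, Psmb2 and Psmc3), and 3 stood under 80 (Psmb4, Psmb5 and Psmc1). The percentile was higher in replicate 2 for 33 genes and lower for 6, but replicate 2 also has the longer list. With equal numbers of the strongest peaks it was higher in replicate 2 for 14 and lower for 24, and the medians were 89.6 and 89.9. In the full lists Psme1 had the largest difference, 11.8 points higher in replicate 2, and it was 7.29 points higher with equal numbers. With equal numbers the largest difference was that of Psmc1, at 66.5 and 51.2, followed by Psme1.

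In the alpha ring of the core, whose subunits form the gate and the docking surface for regulators, 7 of 8 genes had a promoter peak, with medians of 89.1 and 94.4. Psma2 ranked 1288th in replicate 1 and 1537th in replicate 2, a mean percentile of 97.2 ± 0.356 (SD, n = 2). Psma1 stood at 92.9 and 94.4, a mean of 93.7 ± 1.04 (SD, n = 2). Psma7, which also takes part in alpha ring assembly, had the lowest mean of those with a peak, at 85.4 and 87.5 (86.5 ± 1.49, SD, n = 2). In replicate 1 Psma3 was lower still, at 84.3, and it stood at 89.97 in replicate 2. The values of Psma7 and Psma3 did not overlap those of Psma1 or Psma2.

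Psma6 is a case of its own, since its peak lay not at its outermost annotated start but at an internal one. The outer start, at position 55384222 of chromosome 12, has a CpG ratio of 0.222 and no peak within 1 kb. The inner start lies 14553 bases downstream at position 55398775, has a CpG ratio of 0.686, and carried a peak at percentiles 90.4 and 95.1 with 8 and 7 footprints. The motif search below used the outer start, so it does not cover the open promoter of this gene.

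Among the beta subunits, which hold the catalytic sites, 7 of 8 genes had a promoter peak, with medians of 86.7 and 94.0. The structural subunit genes Psmb3 and Psmb1 led with 97.0 ± 0.995 and 96.7 ± 1.00 (SD, n = 2), and Psmb2 followed with percentiles of 97.3 and 95.7. The catalytic subunit genes stood lower. Psmb5 had percentiles of 76.8 and 81.1, the lowest mean of the ring at 79.0 ± 3.03 (SD, n = 2). Psmb7, the trypsin-like subunit, had 79.99 and 85.95, and Psmb6 had 86.7 and 94.0. In both libraries the values of the 3 catalytic subunit genes lay below those of Psmb1, Psmb2 and Psmb3. The structural subunit gene Psmb4, at 75.7 and 82.8, was as low as Psmb5, so the order did not simply separate catalytic from structural subunits.

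The immunoproteasome genes, whose products replace these catalytic subunits, all had a promoter peak in both libraries. Psmb9 stood at 98.3 ± 0.363, Psmb8 at 84.6 ± 5.35 and Psmb10 at 58.8 ± 12.2 (SD, n = 2). The strongest peaks of all 3 lay downstream of the start, with midpoints from 323 to 550 bases away in replicate 1, and covered no start site. Each product takes the place of 1 constitutive subunit. Psmb9 lay above Psmb6, for which it substitutes, and Psmb10 lay below Psmb7 in both libraries. Psmb8 lay above Psmb5 in both, at 80.8 and 88.4 against 76.8 and 81.1, but the ranges of the pair overlap across libraries.

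All 6 ATPases of the base, the ring that unfolds substrates, had a promoter peak, with medians of 91.5 and 93.9. Psmc4 ranked 1464th and 938th, a mean percentile of 97.5 ± 1.35 (SD, n = 2), and Psmc5 ranked 856th and 2064th, a mean of 97.3 ± 0.978 (SD, n = 2). Psmc1 had the weakest promoter peak of all 39 genes, ranked 14213th and 20711th, with a mean percentile of 66.1 ± 0.436 (SD, n = 2). That close match depends on the length of the lists, since with equal numbers of peaks the values were 66.5 and 51.2. Its promoter is nevertheless CpG-rich, with a ratio of 0.93, and 653 bases within 1 kb of the start had an FDR of at most 0.001 in each library. The median over CpG-rich protein-coding genes was 703 and 760 such bases. The Psmc1 peak was also unlike in shape, at 220 bases with 1 footprint in replicate 1 and 340 bases with 6 in replicate 2.

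The base non-ATPase subunits are scaffolds and ubiquitin receptors, and all 3 had a promoter peak. The ubiquitin receptor gene Psmd4 stood at 96.5 and 97.2 (96.8 ± 0.509, SD, n = 2) and the scaffold gene Psmd2 at 88.9 and 89.8 (89.3 ± 0.661, SD, n = 2). Psmd1, another scaffold, had the lowest values, 81.8 and 85.4 (83.6 ± 2.54, SD, n = 2). Its strongest peak had its midpoint at -259 bases from the start site of the basic annotation in both libraries. That peak covered position 86064387, where the annotated span of the gene begins. A weaker peak over the start site itself stood at 75.01 and 75.2.

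All 8 lid genes had a promoter peak, with medians of 91.5 and 92.8. Psmd8 ranked 1010th and 1586th (97.5 ± 0.163, SD, n = 2), and Psmd11 stood at 93.3 and 96.2 (94.7 ± 2.02, SD, n = 2). Psmd14 encodes the deubiquitinase that removes ubiquitin chains from substrates. It had the lowest values of the lid, 76.5 and 84.3 (80.4 ± 5.51, SD, n = 2), but in replicate 1 the widest strongest peak of any member, 320 bases. The other lid subunits, Psmd3, Psmd6, Psmd7, Psmd12 and Psmd13, ranged from 84.6 to 94.5 in replicate 1 and from 85.2 to 93.8 in replicate 2.

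The assembly chaperones assist the base and are absent from the finished particle. Psmd9 stood at 91.4 and 91.5 (91.5 ± 0.00743, SD, n = 2), and Psmd5 at 89.7 and 93.0 (91.4 ± 2.40, SD, n = 2). Psmd10, also known as gankyrin and the only member on the X chromosome, had 80.6 and 88.9 (84.7 ± 5.90, SD, n = 2). Psmc3ip, which is no subunit, stood at 90.7 and 93.5 (92.1 ± 1.97, SD, n = 2), within the range of the subunit genes.

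Of the 5 activator genes 4 had a promoter peak. Psme4, which encodes PA200, stood at 93.5 and 93.5 (93.5 ± 0.0664, SD, n = 2), and Psme3, which encodes the nuclear PA28 gamma, at 86.1 and 89.5 (87.8 ± 2.45, SD, n = 2). Psme1 and Psme2 encode PA28 alpha and beta, are known to be induced by interferon gamma, and start 12.7 kb apart on chromosome 14. Psme1 had 77.8 and 89.6, a mean of 83.7 ± 8.33 (SD, n = 2), the widest spread of any member in the full lists. With equal numbers of peaks the values were 77.8 and 85.1, and Psmc1 had a wider spread. Psme2 had 90.6 and 95.3 (92.9 ± 3.33, SD, n = 2), but that peak lay about 550 bases upstream, near the start of Rnf31. The peak at the Psme2 start itself stood at 78.2 and 88.5, close to Psme1 in both libraries. The promoters of Psme1 and Psme2 are CpG-poor, with ratios of 0.40 and 0.45, unlike those of Psme3 and Psme4.

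Peaks were of similar width throughout. The strongest promoter peak spanned a median of 200 bases in both libraries, with a range of 160 to 320 in replicate 1 and 160 to 340 in replicate 2. Over all protein-coding genes with a promoter peak the medians were 220 and 200. The peak covered a start site for 33 of the 39 genes in replicate 1 and 34 in replicate 2 (84.6% and 87.2%), against 72.2% and 70.4% over all protein-coding genes with a peak. More than 1 promoter peak was present for 16 of the 39 genes in replicate 1 and 14 in replicate 2. These were smaller shares than over all protein-coding genes with a peak, at 5222 of 11716 and 6230 of 12489. Among CpG-rich ones the counts were 4222 of 8823 and 4943 of 9117. Inside the annotated gene spans, away from the promoters, 7 genes held 11 peaks in replicate 1 and 8 genes held 15 in replicate 2. The same count was not made over all protein-coding genes, so it describes no trait of the members. Psmd9 had 3 such peaks in both libraries, Psma2 had 2, and Psma6 had 2 and 4. The span of Psmd9 begins at position 123169413, far before its start site at 123228190. That of Psma6 begins well before its open inner start. Such peaks may thus lie upstream of the open promoter in these genes.

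Each strongest peak held at least 1 footprint in both libraries, with medians of 4 and 5 and a range of 1 to 8 and 2 to 8. Peaks without any footprint were rare in general. Over all protein-coding genes with a promoter peak they numbered 202 of 11716 in replicate 1 and 82 of 12489 in replicate 2. The medians over all protein-coding genes with a peak were 4 and 4. Per 100 bases of peak the members had 2.00 and 2.22 footprints, against 1.82 and 2.00. The number per gene was poorly repeated, with a Spearman rho of 0.301 over 39 genes, and differed most for Psmc1 (1 and 6). The footprints themselves were repeated more often. Of the 169 in replicate 1, 133 had a partner in replicate 2 (78.7%, 95% Wilson interval 71.9 to 84.2), and of the 184 in replicate 2, 134 had one in replicate 1 (72.8%, 65.98 to 78.7). Such partners overlap by at least 50% of the shorter footprint, and the intervals cover counting error only. The same shares were 77.3% and 62.9% over all protein-coding genes and 79.1% and 67.0% over CpG-rich ones. The interval of replicate 1 contains both backgrounds, and that of replicate 2 contains the CpG-rich value.

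**Figure D3:**
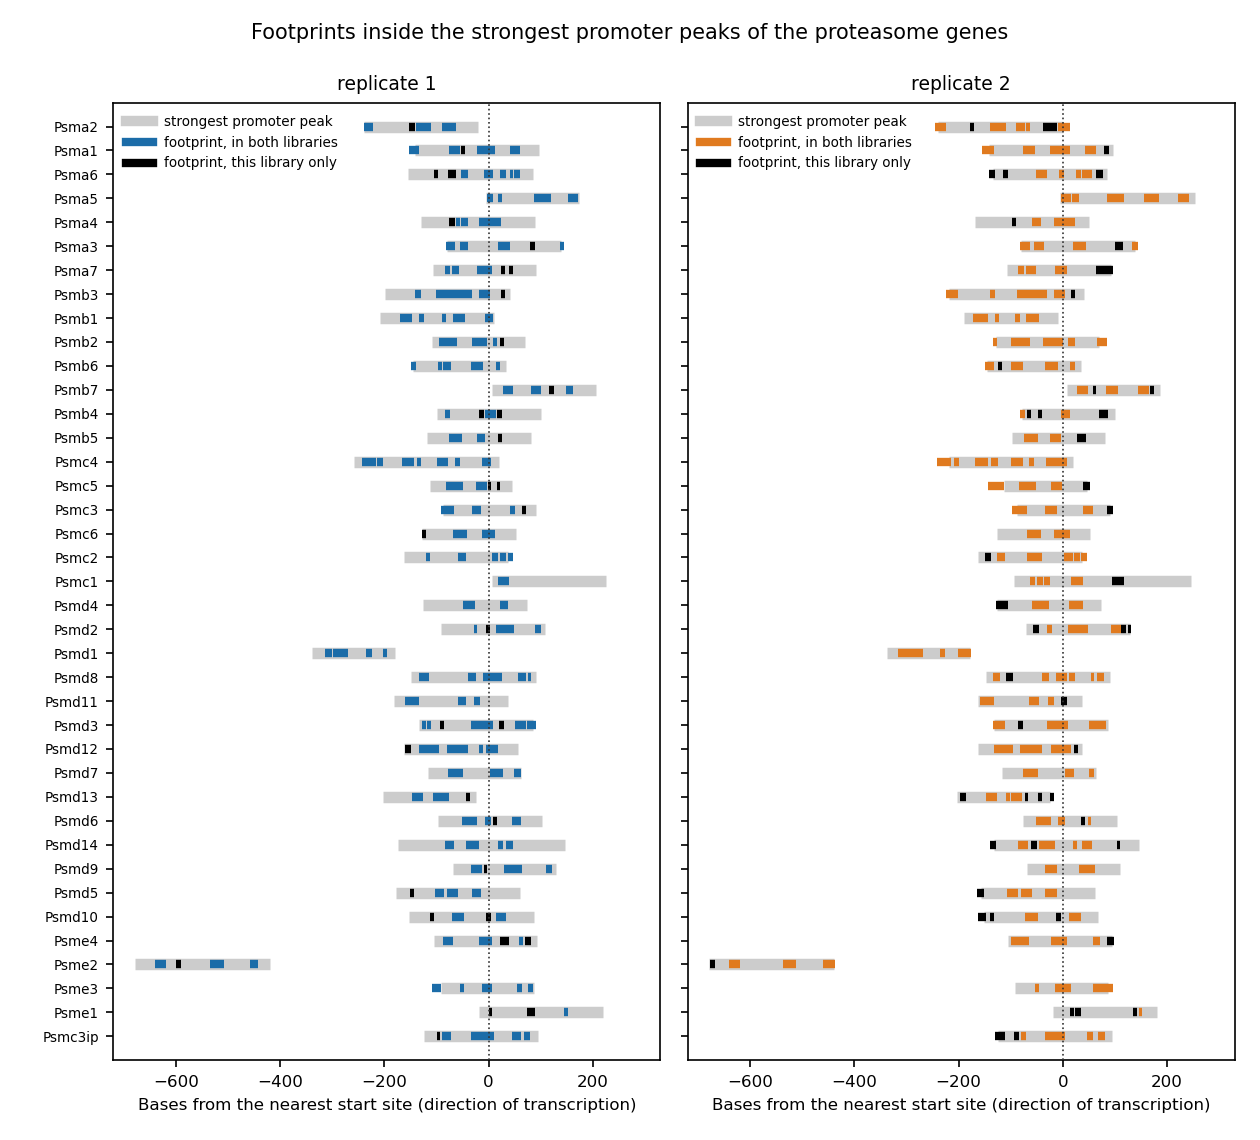
Strongest promoter peak (grey) of each of the 39 genes and the footprints in it, by distance in bases from the nearest start site, for replicate 1 (left) and replicate 2 (right). Coloured footprints have a partner in the other library with at least 50% overlap, black ones do not, and most footprints lie within 200 bases of the start, while those farther upstream belong mainly to Psme2 and Psmd1.

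Only footprints in the strongest promoter peak were counted, so their closeness to a start follows from how these peaks were picked. Their positions were not counted over all protein-coding genes. Of the counted footprints in replicate 1, 54.4% had their midpoint within 200 bases upstream and 39.6% within 200 bases downstream. In replicate 2 these shares were 57.6% and 36.4%. More than 200 bases upstream lay 10 footprints in each library, in Psme2, Psmd1, Psmc4 and Psma2 and, in replicate 2, Psmb3. The median width of a footprint was 14 bases in replicate 1 and 17 in replicate 2. By subcomplex, 20 of 24 and 24 of 29 footprints of the ATPases had a partner in the other library, and 12 of 18 and 10 of 15 of the activators. Of the lid 30 of 35 and 30 of 42 did, of the alpha ring 26 of 35 and 27 of 37, and of the beta ring 24 of 30 and 24 of 32. Each of these shares rests on few footprints.

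Letters of 10 motifs were searched on both strands from 250 bases before to 50 bases after the outermost coding start, and overlapping matches of 1 motif counted as 1 site. A match describes the letters and is no evidence of a bound factor. At least 1 motif was present in 34 of the 42 promoters (81.0%), against 67.4% of all protein-coding promoters and 79.5% of CpG-rich ones. A site counted as footprinted when it lay wholly inside a footprint widened by 5 bases on each side. Such a site may thus lie partly outside the footprint itself. Shares of footprinted sites cover only promoters with a peak within 1 kb of the outermost coding start in each library, which leaves out Psma6.

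The ETS letters CCGGAAG were present in 15 of the 42 promoters (35.7%), compared with 11.3% of all protein-coding promoters and 18.9% of CpG-rich ones. They were in 4 of 6 ATPase promoters (Psmc1, Psmc2, Psmc3 and Psmc6), 2 of 3 base non-ATPase promoters (Psmd2 and Psmd4), 4 of 8 lid promoters (Psmd6, Psmd7, Psmd11 and Psmd12) and 3 of 5 activator promoters (Psme2b, Psme3 and Psme4). The remaining ones were Psmc3ip and, in the core, the closed testis gene Psma8, while the beta subunits had 0 of 8. Of the 16 sites in open members, 11 were footprinted in both libraries (68.8%), compared with 44.4% of 2588 such sites over all open protein-coding promoters. These lay in 9 genes: Psmc1, Psmc6, Psmd2, Psmd6, Psmd7, Psmd11, Psme3, Psme4 and Psmc3ip. In the Psmd11 sequence above the site is CTTccgg near the 3' end.

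**Figure D4:**
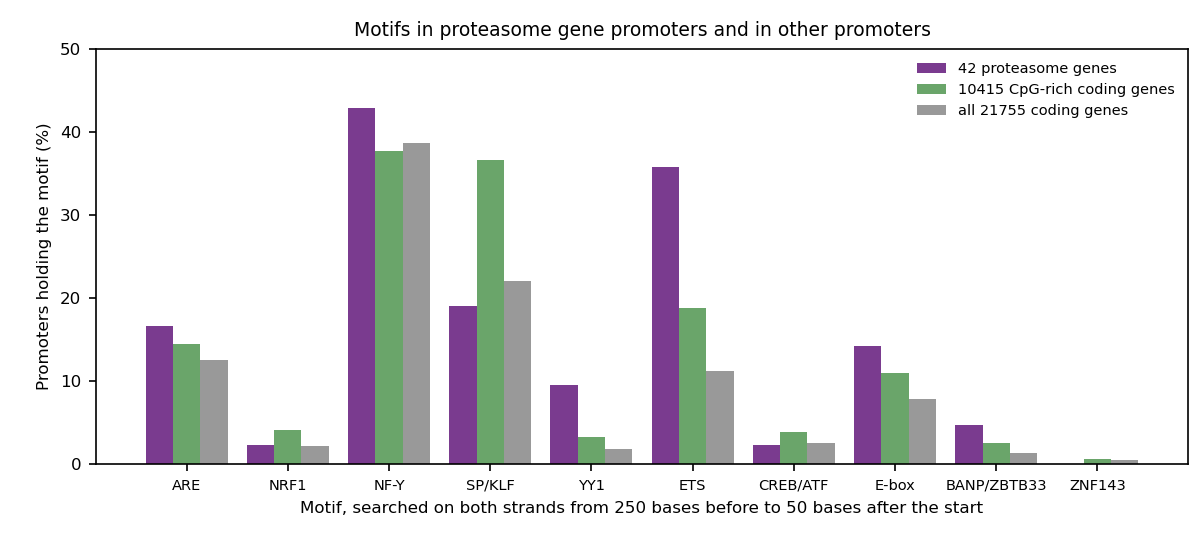
Share of promoters that hold each motif, for the 42 proteasome genes, the 10415 CpG-rich protein-coding genes and all 21755 protein-coding genes, on an axis that starts at 0. The ETS bar stands at 35.7% against 18.9% and 11.3%, whereas the SP/KLF bar stands at 19% against 36.6% and 22.1%.

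The SP/KLF letters GGGGCGGG showed the opposite order, with 8 of 42 promoters (19%) against 22.1% of all and 36.6% of CpG-rich ones. Yet 10 of the 12 sites in open members were footprinted in both libraries (83.3%), compared with 62.7% of 5266 sites over all open promoters, and each of the 8 genes had at least 1. Psma4, for example, has a run of overlapping matches that begins at base -21 from the start. The NF-Y letters CCAAT were in 18 promoters (42.9%), against 38.7% and 37.7%, and 9 of 25 sites in open members were footprinted in both libraries (36%, against 28.1%). Both CCAAT sites in the Psmb3 sequence were among these, and the one in the Psma2 sequence was not.

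The ARE letters TGACNNNGC were in 7 promoters (16.7%), close to the 12.6% of all promoters and 14.5% of CpG-rich ones. The genes were Psmb2, Psmb5, Psmb6, Psmc6, Psmd7, Psmd9 and Psmd12. Of their 7 sites 4 were footprinted in both libraries, those of Psmb5, Psmb6, Psmc6 and Psmd9, and Psmd7 in replicate 2 only. Over all open promoters 28.1% of 1756 ARE sites were footprinted in both libraries. The Psmc6 site lay upstream of that gene's promoter peak in both libraries. The Psmb6 site lay only partly inside its footprint before widening. Counted from the start site, the sites begin at base -20 in Psmb5, -38 in Psmb6 and -31 in Psmd9, as shown in their sequences, and at -191 in Psmc6. In the wider window from 500 bases before to 100 after the start the letters were in 16 of 42 promoters (38.1%), against 21.6% and 23.9%.

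The other motifs were rarer. The YY1 letters AAGATGGCG were in 4 promoters (9.52%, against 1.79% and 3.24%), those of Psmb6, Psmc5, Psmd7 and Psmd11. Of the 4 sites, 2 were footprinted in both libraries, in Psmd7 and Psmd11, against 35.6% of 374 sites over all open promoters. The letters TCTCGCGA of BANP and ZBTB33 were in Psmb2 and Psmd5 (4.76%, against 1.41% and 2.62%). Their 3 sites were all footprinted in both libraries, against 68.7% of 307 sites over all open promoters. In Psmb2 the TCTCGCGA site, the CREB/ATF letters TGACGTCA and a CCAAT site follow each other within the last 35 bases before the start, all footprinted in both libraries. The TCTCGCGA site of Psmb2 lay only partly inside its replicate 1 footprint before widening, so its first letters are in lower case above. The E-box letters CACGTG were in 6 promoters (14.3%, against 7.85% and 10.9%). Of 5 sites in open members 0 were footprinted in both libraries, against 31.9% of 1338 over all open promoters. The NRF1 letters GCGCATGCG were in Psma2 alone. With any base at the centre (GCGCANGCG) they were in 6 promoters (14.3%, against 8.37% and 15.6%). Of these 7 sites, 6 were footprinted in both libraries (85.7%), close to the 82.6% of 2014 sites over all open promoters. The Psmc4 sequence above holds one as TGCGCACGCGCA. The ZNF143 letters CTACAATTC were in 0 promoters.

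Several members share their promoter with a gene on the opposite strand. Within 1 kb upstream of the start, 8 members (19%) had the start of another protein-coding gene, against 9.08% of all protein-coding genes and 15.9% of CpG-rich ones. The pairs and the distances between starts were Psmc2 with Dnajc2 (32 bases), Psma2 with Mrpl32 (75), Psmc5 with Ftsj3 (75), Psma7 with Ss18l1 (76), Psmd13 with Sirt3 (99), Psmb1 with Tbp (137), Psmd10 with Atg4a (179) and Psme2 with Rnf31 (607). Psmc3 had a noncoding partner only (2.38% of members, against 5.69% of all and 8.47% of CpG-rich genes). Counting partners of either kind, the shares were 21.4% of members, 14.8% of all and 24.3% of CpG-rich genes. Both shares of the members thus lay near those of CpG-rich genes and describe no trait of the members. All 8 had a promoter peak, with medians of 90.1 and 93.5, close to the 89.3 and 92.8 of the 30 open genes without a partner. The midpoint of the strongest peak was nearer to the partner than to the proteasome gene for Psma2, Psmb1, Psmc2, Psmd13 and Psme2 in both libraries. The values of Psma2, Psmb1, Psmc2 and Psmd13 thus cannot be assigned to 1 gene of the pair. At Psme2 the strongest peak lay near the Rnf31 start, and the Psme2 start had a separate, weaker peak at 78.2 and 88.5.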

How the data were processed

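Each library was 1 spleen sample, with 2 deposited peak lists, a footprint list and a cut rate track on mm10. Per the deposited readme of each library, peaks and cut rate were made from its own alignments, and footprints from those and the cut rate track, with no pooling. No source used here names the aligner or the callers. The signal of a peak is the authors' value on an unstated scale. The q-values (FDR) of the cut rate track and the footprint threshold of 0.01 are as deposited by the authors, and no test was run on these p-value columns.

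The shorter peak list was used. Start sites came from the basic GENCODE vM21 annotation, sequence from GRCm38. A gene's strongest promoter peak is the one with the highest signal. With 1 group no test was run, and members are described beside all protein-coding genes. Footprints and motifs were counted by overlap. Subcomplexes, comparison lists, markers and motifs were listed by hand. Members and lists were chosen with earlier results of these data known. Values are given for the 2 best and the poorest gene of each subcomplex by mean percentile, every gene without a peak, the activators and tissue isoforms; other genes with values were chosen after these were seen. Of 30 pathway genes listed 29 were found; Paaf1 was not analysed here. Counting was checked on simulated data. Alternatives were the peak list, stronger or equally many peaks, windows, start sites, overlap, motif window and leaving out a library; the comprehensive annotation and the looser NRF1 letters were added after seeing the data. Intervals are 95% Wilson intervals. Python 3.11.15, NumPy 2.4.6, SciPy 1.17.1, pandas 2.3.3 and matplotlib 3.10.9 were used.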

Additional observations from a re-analysis of the deposited data

How the results depend on the processing

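The count of 39 genes with a promoter peak was also found with the longer peak list, with equal numbers of peaks, with the stronger 50% of each list, with windows of 500 bases and 2 kb, and with the comprehensive annotation, and it was 38 with the outermost coding start alone, which loses Psma6. The median rank percentile, 91.3 as the mean of the libraries, was 94.0 with the longer list and 82.5 with the stronger 50% of each list. Adding or removing weak peaks moves every percentile by construction, and the medians over all protein-coding genes with a peak became 89.0 and 91.2 with the longer list and 75.6 and 81.0 with the stronger 50%. The share of footprints found in both libraries, 75.8% as a mean, was 69.8% when the overlap had to cover 80% of the shorter footprint, a stricter match. In the motif window from 500 bases before to 100 after the start the ARE letters were in 16 promoters in place of 7, and CCAAT in 28 in place of 18, and a longer window holds more of any letters. Leaving out a library gave a median percentile of 89.6 to 92.9, 4 to 5 footprints and 72.8% to 78.7% of footprints shared. In all, 41 of the values recomputed for these results and 18 for single motifs moved by less than the spread between the libraries or, for counts, by less than 1.5 times. The 41 include the values with a library left out. With 2 libraries such values cannot move by more than that spread, so they are no sign of stability. No paired analysis was possible because the libraries form 1 group. Depth is not given in the sources used here, so a promoter without a peak may be open below what these libraries detect.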
